A study of Mus musculus with 4 samples.

Results

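The genes of the major histocompatibility complex (MHC) and of antigen presentation were represented by 67 of the 55681 probes of the array, which carried 51 of its 34844 gene names. The members were all non-control probes whose gene name began with H2-, the mouse name of the MHC, and those for B2m, Cd74, Ciita, Tap1, Tap2, Tapbp, Psmb8, Psmb9, Psmb10 and Nlrc5. The rule uses names and no measured value, although it was set with earlier results of these data known. Of the 67 probes, 40 were for class I heavy chains, 14 for class II chains and their chaperones, and 11 for the light chain, peptide supply, loading and transactivators. The other 2 were for H2-Ke2 (Pfdn6 in RefSeq) and H2-Ke6, neighbours in the complex that encode no MHC molecule. Every probe was kept on its own, because genes of this family are close copies of each other and mouse colonies may differ in their MHC alleles.

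Expression was measured in interscapular brown adipose tissue (iBAT) and epididymal white adipose tissue (eWAT) of wildtype (WT) and ASK1KO (ASK1-deficient) mice on 4 one-colour arrays. The study used the arrays to look for functions of ASK1, the stress-activated kinase encoded by Map3k5, in adipose tissue. Each genotype and tissue had 1 array, and its Cy3-labelled RNA was a pool of 3 males, 10 weeks old and kept under normal conditions. The deficiency was carried by the whole body and not by adipocytes alone, and the mice of the study were on the C57BL/6J strain. By the study's methods, WT and ASK1-deficient mice came from separate breeding and were not littermates, so the genotype and the colony cannot be told apart in any difference below. Whether both tissues came from the same mice was not given in the sources used here. With 1 array a group there was no spread between mice and no test within a comparison, so differences are described beside those of all probes.

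Between 28985 and 33389 probes were well above background on an array, and no member was saturated. All values are the array's processed signal, and log2 differences are those of the signal divided by the 75th percentile of its array, which lay between 356 and 673. A probe was called measured in a comparison where the signal was well above background on both arrays. Between repeated spots of 1 probe, the SD of the log2 difference had a median of 0.087 over 276 probes for the genotypes in iBAT and of 0.060 over 292 probes in eWAT. This SD holds no difference between mice. Map3k5 was lower on the ASK1-deficient arrays at its probe A_52_P656714, by -2.0 in iBAT and -1.76 in eWAT on the log2 scale. At A_55_P2079967 it differed by -0.06 and -0.51, and where either probe lies relative to the deleted part of the gene was not analysed here. All 6 brown adipocyte marker probes were at least 2-fold higher in iBAT than in eWAT of WT mice, as their labels have it.

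Class I molecules sit on nearly all nucleated cells and show peptides from the cytosol to CD8 T cells and natural killer cells. Their peptides are cut by the proteasome, carried into the endoplasmic reticulum by the Tap1 and Tap2 transporter and loaded onto a heavy chain paired with the light chain, beta-2 microglobulin (B2m). Class II molecules are made mainly by macrophages, dendritic cells and B cells and show peptides from endosomes to CD4 T cells, with the invariant chain (Cd74) guarding the groove until H2-DM exchanges it for peptide. Nlrc5 and Ciita are the transactivators of the class I and class II genes, and both pathways respond to interferon gamma. In adipose tissue, class II is best known from resident macrophages and dendritic cells. Mice of the b haplotype, which C57BL/6J carries, are known to make no H2-E alpha chain.

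Of the 67 member probes, 44 were well above background on all 4 arrays, 14 on none and 9 on 1 to 3 arrays. Class I accounted for 26 of those measured everywhere, class II for 8 and the processing genes for 8. The H2-Ea-ps probe, for the H2-E alpha chain, was on no array well above background. The same held for all probes of H2-M1, H2-M5, H2-Q1 and the H2-M10 genes, a group of class I genes known from the vomeronasal organ. Members below background on every array have no direction and are not described further.

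In iBAT the class I probes were higher on the ASK1-deficient array. Of 26 measured probes 23 were above 0, beside 43.8% of all probes, and their median log2 difference was 0.44 against -0.05 for all 28384 probes measured. The class II probes lay at the same height, with 7 of 8 above 0 and a median of 0.43, and the processing probes had a median of 0.29 with 6 of 8 above 0. None of these differences was large. No member measured on both arrays reached a difference of 2-fold, while 0.923% of all probes did so upward and 0.941% downward. At 1.5-fold, 6 members were higher, beside 4.83% of all probes, namely Psmb8, Cd74, H2-D1, H2-Q8, H2-T9 and 1 probe of H2-M9. Those lower were the 2 probes of H2-T24, beside 4.57% of all probes. In eWAT the picture differed by class. The class I median was -0.02 with 12 of 28 probes above 0, beside 57.7% of all 31725 probes measured, and the class II median was -0.28 with 0 of 12 above 0. The processing median was -0.01. The class I and processing medians in eWAT were near 0, and their sign depends on the scaling. In eWAT again no such member reached 2-fold, where 0.372% of all probes were higher and 0.662% lower by that much. At 1.5-fold 0 members were higher, beside 2.28% of all probes, and 3 were lower, beside 2.35%.

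**Figure D1:**
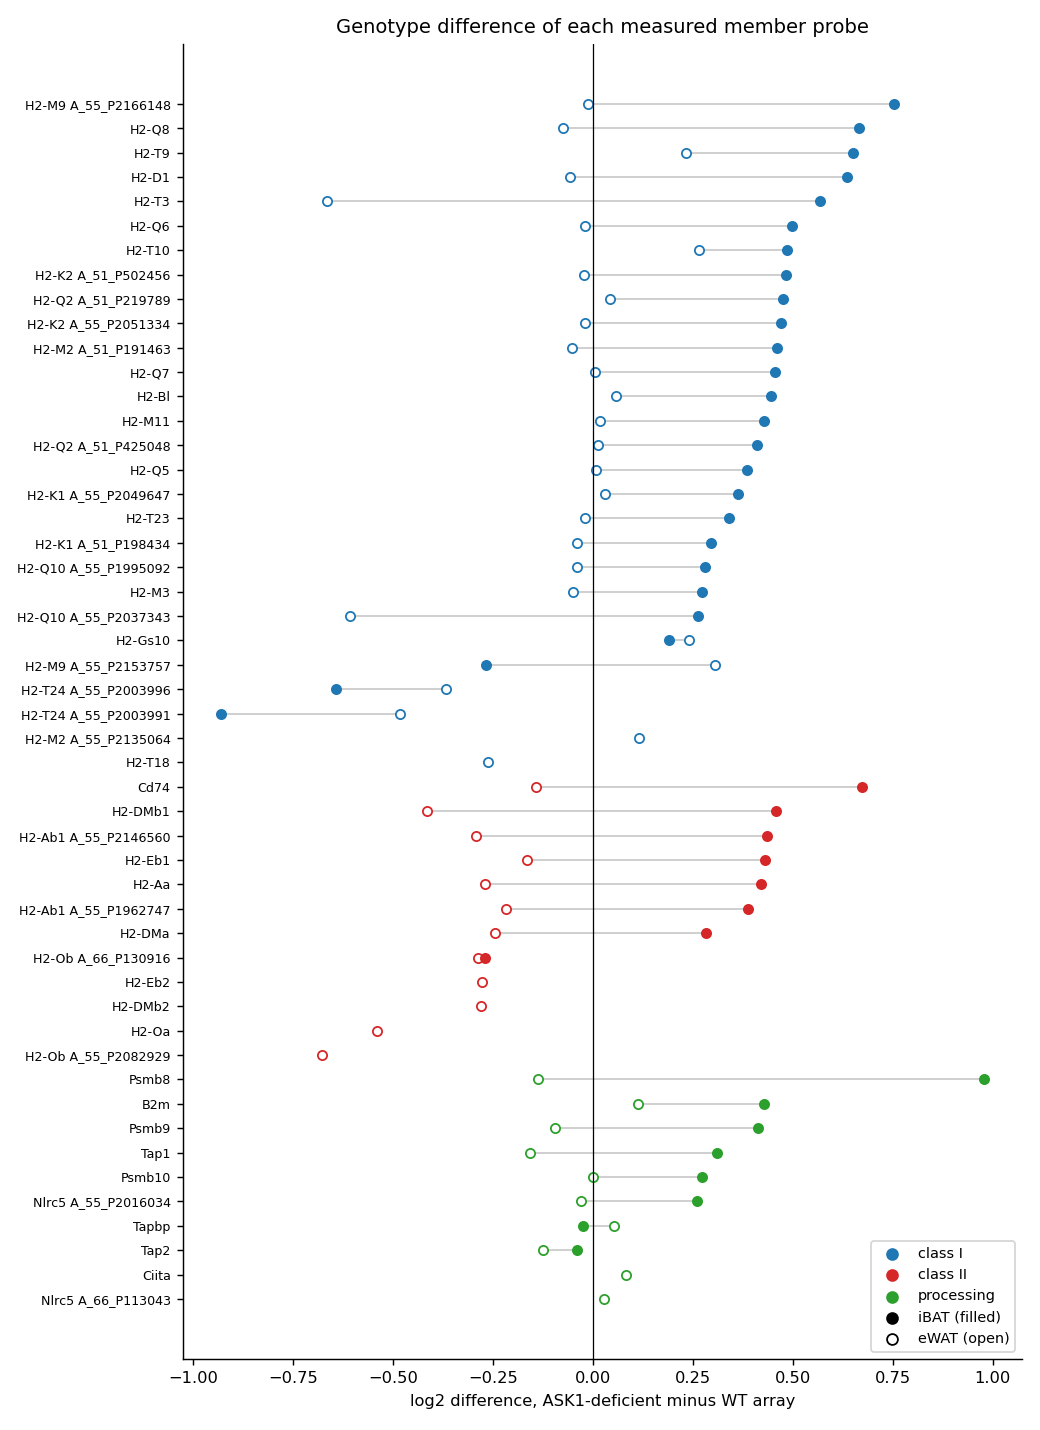
Log2 difference, ASK1-deficient minus WT array, of each member probe that was measured in iBAT (filled) or eWAT (open), sorted within class I (blue), class II (red) and processing (green). Most filled points lie right of 0, with class I and class II medians of 0.44 and 0.43, while the open class II points all lie left of 0.

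The classical class I heavy chains H2-K1 and H2-D1 present peptides to CD8 T cells. The H2-D1 probe lies on chromosome 17 of mm9 at 35403886 to 35403945. Its signal in iBAT was 23278 (WT) and 37709 (ASK1-deficient), and in eWAT it was 92517 and 83681 in the same order, which is kept for all pairs of signals below. The ASK1-deficient array was higher in iBAT only, by a log2 difference of 0.63, and the value in eWAT was -0.06. The H2-K1 probe with 10 spots, from 34133055 to 34133114, read 33930 and 43468 in iBAT and 116950 and 107100 in eWAT. Its log2 difference was 0.30 in iBAT, with an SD of 0.018 over the 10 spots, and -0.04 in eWAT. The other H2-K1 probe gave 0.36 and 0.03. Both probes of H2-K2, which lies beside H2-K1, gave similar values, 0.48 and 0.47 in iBAT and -0.02 at each in eWAT.

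Class I probes may not all be separate measurements of their genes. Several share a run of at least 21 identical bases, so that RNA of 1 gene may bind the probe of another. The following stretches of 30 bases, taken from the 60-base probes of the array, show such pairs, with the shared run in capitals.
H2-T23: TGGAGCTGTGGTGGCTTTTGTGATGAAGAg
H2-K1: TGGAGCTGTGGTGGCTTTTGTGATGAAGAt
H2-K2: aTCTCCTGTGACATCCAGAGCCCTCAGTTt
H2-Q7: cTCTCCTGTGACATCCAGAGCCCTCAGTTc
The run common to the H2-T23 and H2-K1 probes has 29 bases, and that common to the H2-K2 and H2-Q7 probes 28. The H2-T23 probe differed by 0.34 in iBAT and -0.02 in eWAT, close to the H2-K1 probe it overlaps in sequence. The H2-Q7 probe differed by 0.46 and 0.01. How much of each signal came from the other gene was not tested. Without the members that share such a run with another member, the class I median in iBAT lay 0.47 above that of all probes, and 0.48 above it with them. This left in any probe with a shorter or imperfect shared stretch, and H2-Q6, which shares 54 bases with a non-member probe. It cannot show how far such binding shaped the median.

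Most nonclassical class I probes followed the same order in iBAT, where 5 of 7 measured T probes and 4 of 5 measured M probes were above 0. All 9 measured probes of the Q region were above 0 there, from 0.19 for H2-Gs10 (H2-Q4 in RefSeq), which gave 0.24 in eWAT, to 0.67 for H2-Q8. H2-Q8 read 980.4 and 1624 in iBAT and 1655 and 1479.6 in eWAT, where the difference was -0.07. In the T region H2-T9 gave 1153 and 1889 in iBAT and 2361 and 2612 in eWAT, so that both tissues were higher in the ASK1-deficient pool, by 0.65 and 0.23. H2-T10 was alike, with 0.49 and 0.27. H2-M3, which presents formylated peptides of bacteria and mitochondria, gave 0.27 in iBAT and -0.05 in eWAT. The H2-M2 probe with 10 spots gave 0.46 and -0.05. H2-Bl gave 0.45 and 0.06 and H2-M11 0.43 and 0.02. One H2-T18 probe and the other H2-M2 probe were not well above background in WT iBAT, and were at least 1.16-fold and at least 1.08-fold higher in the ASK1-deficient pool. In eWAT these 2 probes gave -0.26 and 0.12.

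H2-T24 ran against its class. The probe at 36142640 to 36142699 (chromosome 17, mm9) read 404 and 270.5 in iBAT and 448 and 327 in eWAT. The one at 36143605 to 36143664 read 51.3 and 28.1 in iBAT and 56.4 and 38.0 in eWAT. Both probes were thus lower on the ASK1-deficient array of both tissues, by -0.64 and -0.93 in iBAT and by -0.37 and -0.48 in eWAT. In iBAT 1.21% of all probes were lower than the dimmer of them. That probe lay near background, and after normexp background correction its difference was -0.41 in iBAT and -0.09 in eWAT. H2-M9 was the single gene whose measured probes lay at least 1 apart between genotypes, with 0.75 at one and -0.27 at the other in iBAT, and -0.01 and 0.30 in eWAT. After normexp background correction the iBAT values were 0.13 and -0.30. The latter probe was higher in iBAT than in eWAT by 1.28 in WT. Both H2-M9 probes were dim, with signals between 24.96 and 72.1 on the 4 arrays, where the lowest signal well above background was between 17.3 and 20.7.

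The light chain B2m, on chromosome 2, read 36578 and 51377 in iBAT and 127570 and 129780 in eWAT. Its log2 difference was 0.43 in iBAT and 0.11 in eWAT, so that it stood with the heavy chains in iBAT. The loading genes differed from each other. Tap1, which forms the peptide transporter with Tap2, gave 227 and 294 in iBAT and 644 and 544 in eWAT, with log2 differences of 0.31 and -0.16. Tap2 gave -0.04 and -0.12. Tapbp (tapasin), which bridges the transporter and the heavy chain, gave -0.02 and 0.05. The direction of Tap2 and Tapbp in iBAT depended on the scaling, and they were the only 2 of the 44 members measured there of which this was true.

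The immunoproteasome subunit Psmb8 had the highest difference of all measured members in iBAT. It replaces the constitutive subunit Psmb5 in cells exposed to interferon. Its signal, at 34337771 to 34337830 of chromosome 17 (mm9), was 1326 and 2727 in iBAT and 4576 and 3914 in eWAT. The log2 difference was 0.98 in iBAT, where 0.98% of all probes were higher, and -0.14 in eWAT, and under some scalings it passed 2-fold, with 1.08 as the highest value. Psmb9 gave 1925 and 2672 in iBAT and 4980 and 4387 in eWAT, with differences of 0.41 and -0.10, and Psmb10 gave 0.27 and 0.00. A second Psmb9 probe was well above background on the ASK1-deficient eWAT array alone, where it was at least 1.45-fold higher. The constitutive proteasome did not share the direction in iBAT. Psmb5 had -0.50 and -0.32 at its 2 probes and Psmb6 had -0.18. Across the other genes of the class I pathway, which also include peptide trimming and chaperones, 10 of 13 probes were below 0 in iBAT with a median of -0.18. Of the brightest, Canx gave -0.17 and the Psme2 probes gave -0.31, 0.34 and -0.33.

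**Figure D2:**
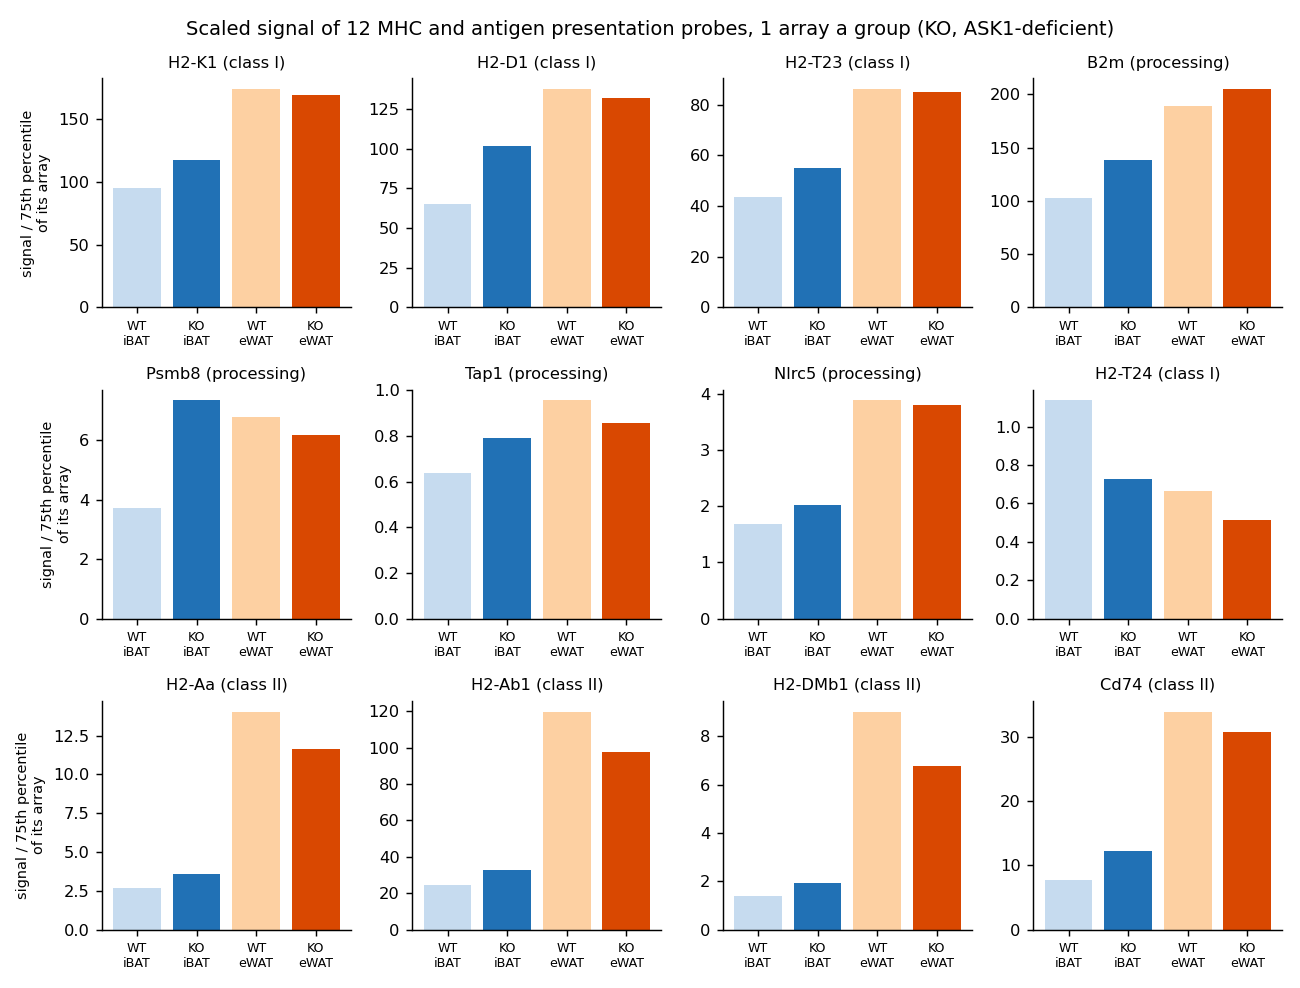
Signal of 12 member probes divided by the 75th percentile of its array, 1 bar for each array with no error bar because each group has 1 array (KO, ASK1-deficient). The ASK1-deficient iBAT bar stands above the WT iBAT bar in every panel except H2-T24, and the class II bars of the bottom row are several times taller in eWAT than in iBAT.

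Nlrc5, the class I transactivator, read 602 and 752 in iBAT and 2616 and 2414 in eWAT, with log2 differences of 0.26 and -0.03. A second, dimmer Nlrc5 probe was not well above background in WT iBAT and was at least 1.63-fold higher in ASK1-deficient iBAT. Ciita, the class II transactivator, was likewise not well above background in WT iBAT. Its signal was 43.2 in ASK1-deficient iBAT, which made it at least 2.10-fold higher there, and 213 on both eWAT arrays. The Ciita probe shares a run of 26 bases with a probe for Odz1 and of 22 with a probe for Cbln2, and the share of its signal that came from either was not tested. Among the genes of interferon gamma signalling, 7 of 8 measured probes were above 0 in iBAT with a median of 0.21, and in eWAT 4 of 8 were. Of the brightest, Ifngr1 gave 0.37 and 0.03, Irf1 0.16 and 0.14, Jak1 -0.05 and -0.01, and Jak2 0.21 and -0.30. Ifng itself, named after its values were seen, was well above background on the WT eWAT array alone, with a signal of 70.4.

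The classical class II chains lay close together in iBAT. H2-Aa, the alpha chain of H2-A, had signals of 949.9 and 1327 in iBAT and of 9453 and 7382 in eWAT. The genotypes stood in opposite order in both tissues, with log2 differences of 0.42 and -0.27. Its beta chain H2-Ab1 had 2 probes that overlap by 41 bases. The one from 34406305 to 34406363 gave 8671 and 12231 in iBAT and 80668 and 61956 in eWAT, differences of 0.43 and -0.29, and the other gave 0.39 and -0.22. H2-Eb1 gave 9544 and 13421 in iBAT and 68206 and 57261 in eWAT, differences of 0.43 and -0.16. The lowest and highest of the 4 measured classical probes in iBAT were thus 0.39 and 0.43. H2-Eb2 was not well above background in WT iBAT and was at least 1.19-fold higher in ASK1-deficient iBAT.

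The invariant chain and H2-DM kept the same order. Cd74 read 2724 and 4532 in iBAT and 22835 and 19470 in eWAT, with log2 differences of 0.67 and -0.14. H2-DMb1 gave 499 and 716 in iBAT and 6079 and 4294 in eWAT, with differences of 0.46 and -0.41, and H2-DMa gave 0.28 and -0.24. H2-O is the inhibitor of H2-DM, known from B cells and dendritic cells, and its beta chain H2-Ob was not higher in the ASK1-deficient iBAT pool. The H2-Ob probe measured everywhere gave 47.9 and 41.5 in iBAT and 167.5 and 129 in eWAT, log2 differences of -0.27 and -0.29 that were -0.07 and -0.19 after normexp background correction. At another H2-Ob probe the ASK1-deficient iBAT array was not well above background and at least 1.93-fold lower than WT, and the difference in eWAT was -0.68. H2-Oa was not well above background in WT iBAT and at least 1.04-fold higher in the ASK1-deficient pool, and in eWAT it gave 105 and 67.9, a difference of -0.54 that was -0.24 after normexp.

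Other genes of the class II pathway showed no common direction in iBAT, where 6 of 13 measured probes were above 0 with a median of -0.05. Of the brightest, Ctsl gave -0.20, Lgmn -0.10, both Cd1d1 probes -0.43 and -0.40, and the March1 probes 0.61 and 0.78. Cd1d1 encodes CD1d, which pairs with B2m and presents lipids to NKT cells, and is no class II molecule although it was put in this list. The single probe of this list at least 2-fold higher, named after its value was seen, was that of Ctss (cathepsin S), the protease that trims the invariant chain, with signals of 774.5 and 1666.

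Markers of some immune cells stood with these probes in iBAT, and in RNA of whole tissue a change in the number of cells and a change in RNA per cell cannot be told apart. In iBAT 14 of 15 measured macrophage marker probes were above 0 with a median of 0.58, and in eWAT 6 of 17 were, with a median of -0.06 where that of class II was -0.28. The summed signal of all 17, divided by the 75th percentile of the array, was 45.3 and 58.6 in iBAT and 190.0 and 182 in eWAT. Before that division it was 16134 and 21751 in iBAT, of which 1 Itgam probe gave 8399.5 and 10572. That probe differed by only -0.04 between the WT tissues. Of the brightest genes of the macrophage list, Csf1r gave between 0.20 and 0.47 at 3 probes, Itgam gave between -0.08 and 0.27 at 3 probes, C1qc gave 0.79 and C1qa 0.86 in iBAT. The Cd163 probe was not well above background in WT iBAT. Dendritic cell markers were above 0 at 7 of 8 measured probes in iBAT, with a median of 0.29, and at 1 of 11 in eWAT, with a median of -0.38. Their summed level was 2.78 and 3.61 in iBAT and 29.6 and 28.2 in eWAT, while Xcr1 was below background on every array. In eWAT most of this sum was Clec10a, which read 14741 and 14195 in eWAT and gave 0.56 in iBAT and 0.03 in eWAT. Batf3 gave 0.29 and -0.22, Itgax 0.998 and -0.64 and the brighter Cd209a probe 0.39 and -0.43. Ptprc, the general leukocyte marker, gave 43.3 and 79.9 in iBAT and 570.0 and 407 in eWAT, differences of 0.82 and -0.40. The T and NK cell markers lay at -0.05 (iBAT) and -0.32 (eWAT) by their medians, with Cd8a below background on every array. In eWAT 4 of their 10 measured probes were at least 1.5-fold lower, beside 2.35% of all probes. The B cell markers had medians of 0.00 and 0.08, and in iBAT they went both ways. Cd79a gave -0.58 and Cd79b -0.42 there, Cr2 gave 0.48 and 0.41 at its probes, and Ms4a1 was not well above background without ASK1, at least 2.94-fold under WT. H2-Ob was lower in that same pool. The part of these cells in the class I and class II differences was not tested.

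**Figure D3:**
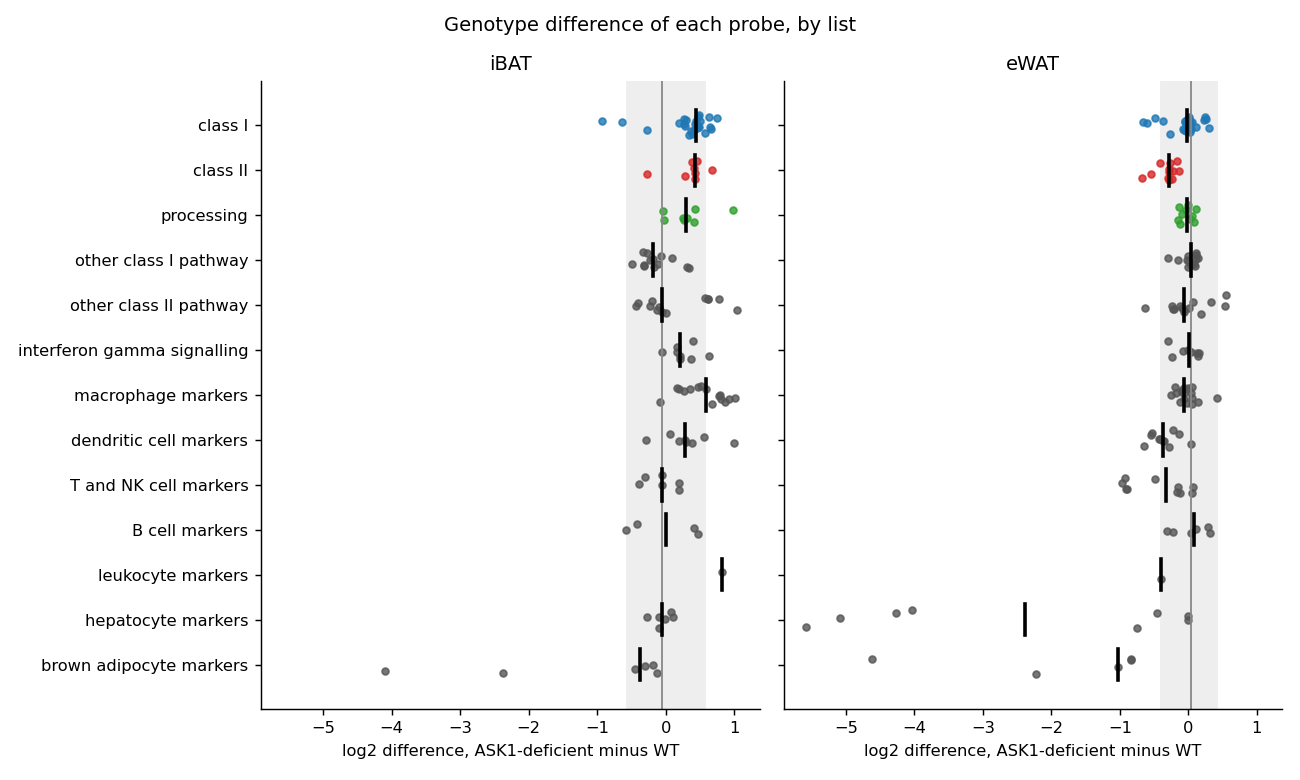
Log2 difference, ASK1-deficient minus WT, of each measured probe in the member classes, the other pathway lists and the cell type marker lists, with iBAT left and eWAT right. Black bars are list medians, the grey line is the median of all probes (-0.05 in iBAT and 0.03 in eWAT) and the grey band spans their 5th to 95th percentile. The medians of class I, class II and macrophage markers lie right of the grey line in iBAT.

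In eWAT and iBAT 2 other lists also stood apart between the genotypes. In eWAT all 8 measured hepatocyte marker probes were below 0, with a median of -2.39, and all 5 measured brown adipocyte marker probes were below 0, with a median of -1.02. The list was not uniform. Its brightest gene, Cyp2e1, read 284080 and 267350 in eWAT at its brighter probe, with differences of 0.00 and -0.01 at both probes, and Tat gave -0.46. Apoa2 gave -5.08 and -0.74 at its probes and Alb read 3234 and 158, while Ttr, Fgg, Fgb, Apoh, Apoa1 and Fga were not well above background in ASK1-deficient eWAT. In iBAT 6 hepatocyte probes were measured, with a median of -0.05. Another 6 were well above background in the ASK1-deficient pool and not in WT, Alb at least 5.62-fold, Ahsg at least 5.23-fold, Ttr at least 2.18-fold, Fgg at least 2.13-fold, Fgb at least 1.20-fold and Apoh at least 1.04-fold higher. The summed hepatocyte level was 91.0 and 85.4 in iBAT and 658 and 635 in eWAT, where most of it came from Cyp2e1, which adipocytes also express. All 6 brown adipocyte probes were below 0 in iBAT, with a median of -0.37, among them Dio2 with -2.37 and Elovl3 with -4.10, named after their values were seen. The part of liver RNA or brown adipocytes in the member values of either tissue was not tested.

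The order of genotypes was set against each other between tissues for the 42 MHC and processing probes measured on all 4 arrays. The iBAT difference was above the eWAT difference at 37 of them, beside 40.0% of all 27613 such probes. Of the 8 class II probes, 7 were above 0 in iBAT and below 0 in eWAT, and 13 of 26 class I probes were, beside 17.1% of all probes. Over the scalings and background corrections run, a comparison added after the values were seen, the class II count was 7 each time, the class I count ran from 8 (series table) to 20 (no scaling), and the share of all probes from 11.4% to 31.1% in the same settings. Genes next to the members on the chromosome did not show the iBAT difference. The 152 measured probes of other genes between the outermost H2 probes on chromosome 17 (34076578 to 37618439 of mm9) had a median of -0.08, with 43.4% above 0. H2-Ke2 and H2-Ke6, within that interval, gave -0.31 and -0.38 in iBAT and -0.02 and -0.01 in eWAT. Between tissues they were higher in iBAT, by 1.03 and 1.61 in WT and by 0.74 and 1.25 in ASK1-deficient mice.

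Of the member classes, class II stood furthest from all probes between tissues. In WT mice all 9 measured class II probes were lower in iBAT than in eWAT, where 59.6% of all probes were higher. At least 2-fold lower were 8 of them, beside 10.5% of all 28185 probes, with a median log2 difference of -2.18 against 0.19 for all probes. In ASK1-deficient mice 9 of 10 were lower, where 55.5% of all probes were higher. At least 2-fold lower were 7 of them, beside 10% of all probes, and the median was -1.45. H2-DMb1 and H2-DMa were the lowest in WT, with -2.69 and -2.64, and gave -1.81 and -2.11 in ASK1-deficient mice. H2-Aa gave -2.39 and -1.70, the H2-Ab1 probes -2.30 and -2.18 in WT and -1.57 and -1.58 in ASK1-deficient mice, and Cd74 -2.15 and -1.33. H2-DMb2 was well above background in eWAT alone, and Ciita was at least 5.73-fold lower in WT iBAT than in WT eWAT. The class I probes differed less, with medians of -0.48 (WT) and -0.03 (ASK1-deficient). Of 26 class I probes 3 were at least 2-fold higher in WT iBAT, beside 16.9% of all probes, and 2 (H2-D1 and H2-M3) at least 2-fold lower. Of 28 in ASK1-deficient mice 2 were that much higher, beside 12.6%, and 1 (H2-M3) lower. H2-D1 gave -1.07 and -0.38, B2m -0.88 and -0.57, Psmb8 -0.87 and 0.25, and H2-Q8 0.16 and 0.91. The Nlrc5 probes lay 1.25 apart in ASK1-deficient mice. Macrophage marker probes were lower in iBAT at 14 of 15 in WT, with a median of -2.98, and at 15 of 17 in ASK1-deficient mice, with a median of -2.46, and their part in the tissue differences was not tested.

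**Figure D4:**
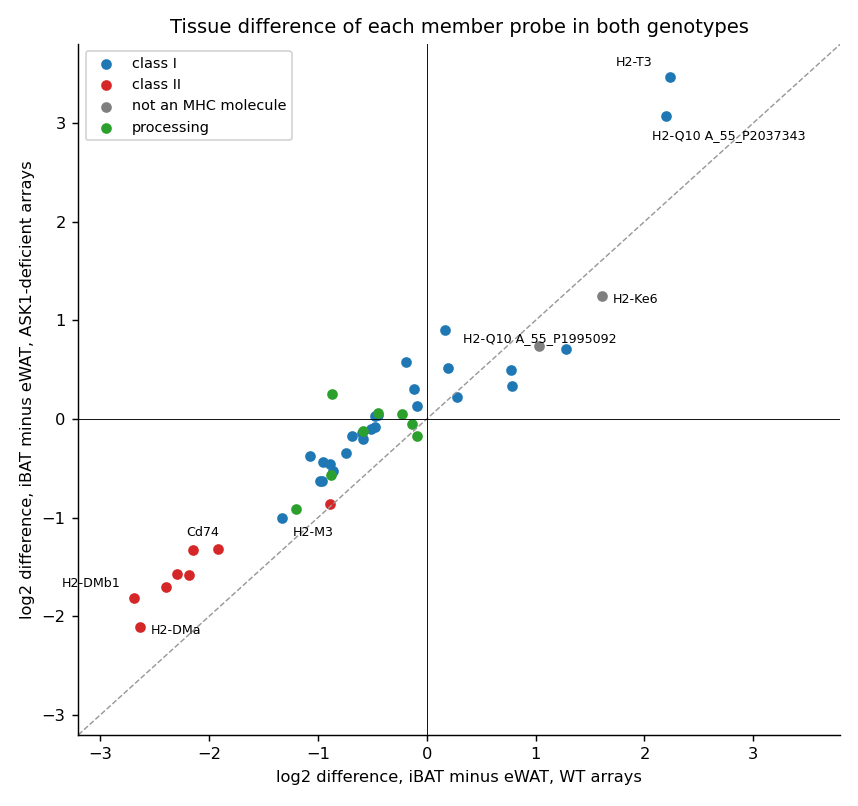
Log2 difference between tissues, iBAT minus eWAT, of each member probe in WT (horizontal axis) and ASK1-deficient mice (vertical axis), with the dashed line where both are equal. Class II probes (red) lie far below 0 on both axes and mostly above the dashed line, and 1 H2-Q10 probe and H2-T3 lie alone at the upper right.

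One H2-Q10 probe and 1 H2-T3 probe had the opposite tissue order. H2-Q10 is a class I molecule without membrane anchor that is known as a secreted product of the liver, and H2-T3 encodes the thymus leukaemia antigen. The H2-Q10 probe at 35611449 to 35611508 read 10695 and 13404 in iBAT and 4412 and 2724 in eWAT. The H2-T3 probe from 36322516 to 36322575 gave 116 and 180.0 in iBAT and 46.8 and 27.8 in eWAT. Both were thus higher in iBAT than in eWAT, by 2.20 and 2.23 in WT and by 3.07 and 3.47 in ASK1-deficient mice. The 30-base stretches that hold the run they share, in capitals, are these.
H2-Q10: gagtTTGTGGAGGAAATAAATGGCAGatgg
H2-T3: agtaTTGTGGAGGAAATAAATGGCAGcatg
The shared run has 22 bases, and both probes stood alike between genotypes too, with 0.26 and 0.57 in iBAT and -0.61 and -0.67 in eWAT. The second H2-Q10 probe, from 35610036 to 35610095, did not follow. Its tissue differences were 0.20 and 0.52, which is 2.0 and 2.55 below those of the first, and it differed by 0.28 and -0.04 between genotypes. Which transcript the 22-base run catches was not tested. The first H2-Q10 probe and Alb were both higher in the ASK1-deficient pool of iBAT, by 0.26 and at least 5.62-fold, and both lower in that of eWAT, by -0.61 and -4.26. Between WT tissues they stood in opposite order, Alb being not well above background in WT iBAT. The part of liver RNA in the H2-Q10 signal was not tested. The H2-T3 probe was dim, and after normexp background correction its genotype difference in eWAT was -0.16.

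With limma, 1 model of tissue and genotype was fitted to all 4 arrays, over the 27613 probes well above background on each. The fit has 1 residual degree of freedom, and its residual is how far the genotype difference departs from one tissue to the other, with no spread between mice in it. For genotype it called 0 of 44 members and 0 of all probes at an adjusted p under 0.05. At an unadjusted p under 0.05 it called 4 members, the 2 H2-T24 probes, H2-T10 and H2-T9, beside 6.48% of all probes. For tissue it called 25 of 44 members, near the 53.5% of all probes. Of 26 class I probes 5 were called higher in iBAT, beside 32.7% of all probes, and 8 lower, beside 20.8%. All 8 class II probes were called lower, and 2 of 8 processing probes were, B2m and Nlrc5. H2-DMa had a tissue difference of -2.37 (SE 0.18) with an adjusted p of 0.000174 in limma, and the first H2-Q10 probe 2.63 (SE 0.23) with 0.00027.

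Sequence before the start sites was read for every member with an entry, from RefSeq on GRCm38.p6, a build other than that of the probe positions. Of the 51 gene names, 47 matched a RefSeq symbol and 3 a synonym, and 34 had a promoter in the table. In the 250 bases before the start site 3 motifs were searched on both strands: CTGATTGG, the Y box of class I and class II promoters that NF-Y binds, GGGATTCCC, a kappa B site, and GAAANNGAA, an interferon response element. The Y box was found for 17 of the 34 genes, beside 3.83% of 32851 promoters. They include H2-M1, H2-M10.1, H2-M10.3, H2-M10.4 and H2-M10.6, well above background on no array, and H2-Oa and H2-Eb2, not measured in WT iBAT. The kappa B letters were found for H2-K1, H2-D1, H2-Q6 and H2-Q7, beside 0.301% of all promoters, and the interferon response letters for B2m and H2-T23, beside 7.13%. Only these exact letters were searched. Genes without an interferon match, H2-K1 and H2-D1 among them, may therefore carry another form of that element. As examples of bright members, the windows of 2 classical class I genes, 2 class II chains and the light chain are printed on the strand of the gene, with matches in capitals.
H2-K1, chr17:34000348-34000597, minus strand: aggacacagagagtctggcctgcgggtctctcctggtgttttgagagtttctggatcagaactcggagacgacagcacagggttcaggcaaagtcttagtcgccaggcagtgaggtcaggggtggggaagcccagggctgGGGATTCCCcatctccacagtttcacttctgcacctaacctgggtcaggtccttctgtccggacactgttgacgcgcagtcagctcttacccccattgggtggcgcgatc
H2-D1, chr17:35262844-35263093, plus strand: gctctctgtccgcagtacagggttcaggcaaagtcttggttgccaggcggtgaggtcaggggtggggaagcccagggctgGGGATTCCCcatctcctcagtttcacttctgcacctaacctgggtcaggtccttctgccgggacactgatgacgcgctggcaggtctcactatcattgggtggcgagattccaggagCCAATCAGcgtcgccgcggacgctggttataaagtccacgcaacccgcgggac
H2-Aa, chr17:34287824-34288073, minus strand: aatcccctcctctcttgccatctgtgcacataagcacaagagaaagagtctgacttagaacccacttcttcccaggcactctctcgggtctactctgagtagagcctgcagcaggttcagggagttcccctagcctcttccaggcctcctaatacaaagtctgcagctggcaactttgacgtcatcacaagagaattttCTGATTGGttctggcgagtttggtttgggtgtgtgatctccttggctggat
H2-Eb1, chr17:34305617-34305866, plus strand: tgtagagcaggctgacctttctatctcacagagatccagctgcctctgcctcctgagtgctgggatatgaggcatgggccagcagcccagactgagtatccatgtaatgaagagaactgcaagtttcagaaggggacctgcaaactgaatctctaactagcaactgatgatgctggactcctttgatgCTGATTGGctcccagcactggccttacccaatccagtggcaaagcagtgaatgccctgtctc
B2m, chr2:122147437-122147686, plus strand: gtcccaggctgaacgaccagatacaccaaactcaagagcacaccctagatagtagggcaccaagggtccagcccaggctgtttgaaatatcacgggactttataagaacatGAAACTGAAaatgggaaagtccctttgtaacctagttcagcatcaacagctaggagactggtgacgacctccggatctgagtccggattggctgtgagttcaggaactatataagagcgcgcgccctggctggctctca
The kappa B match ends 102 bases before the start site used for H2-K1, of 2 listed, and 162 before that of H2-D1. The Y box match ends 44 bases before the start site of H2-Aa, 55 before that of H2-Eb1 and 46 before that of H2-D1, where it reads on the other strand. These letters were matched in reference sequence and describe no binding in adipose tissue.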

How the data were processed

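Total RNA was labelled with Cy3 and hybridised to Agilent whole mouse genome arrays with 8 arrays a slide. The authors deposited the scanner output of Agilent Feature Extraction 10.7.3.1 for each array, in which the processed intensity of each spot is linear, background-corrected and not scaled between arrays. A second deposited table gives the signal of every array on a linear scale, equal to the scanner's divided by 1 constant per array that sets its median to 1. Samples were grouped by the labels.

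Control spots and outlier spots were left out, spots of 1 probe were averaged as log2 values, and each array was scaled by subtracting its own 75th percentile. Where a probe was not well above background on 1 of 2 arrays, the fold was a bound, its bright level over whichever was higher on the dim array, its own level or the lowest one there that passed. Log2 differences were described by counts and medians, without a test. The additive fit used limma 3.58.1 in R 4.3.3 with Benjamini-Hochberg adjustment over all 27613 probes. Python 3.11.15, numpy 2.4.6, pandas 2.3.3 and matplotlib 3.10.9 were used otherwise. Probe positions were taken as deposited (mm9), and exons were not assigned since no sequence of that build was at hand.

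The members and lists were chosen with earlier results of these data known. Values are given for every classical class I and class II gene, every processing gene, every member at least 2-fold apart between genotypes, the 5 highest and 5 lowest members of each comparison, each gene whose measured probes differ by 1 or more between genotypes, and up to 4 of the brightest genes of other lists. A marker list member named Adgre1 had no probe under that name.

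As alternatives, scaling was replaced by quantile normalization, by median centring, by the 75th percentile of the probes detected on all 4 arrays or by none. The background was corrected by normexp (offset 50), the series table was used, dim probes were filtered on all 4 arrays or not at all, only each gene's brightest probe was kept, and the threshold was set to 1.5-fold. Leaving out members that share a run of at least 21 bases with another member was added after seeing the data. On simulated data with 200 probes changed by a log2 value of 2, the 2-fold count recovered all 200 in iBAT, over 28384 probes, and all 200 in eWAT, over 31725, with 0 false counts. The genotype term of the fit recovered 200 over 27613 probes with 3 false calls. This covers the noise of the array and not the mice. The planted change exceeded the 2-fold threshold and the genotype difference of every measured member. It therefore says nothing of differences as small as theirs.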

Additional observations from a re-analysis of the deposited data

Results flagged for a closer look

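A probe is listed here where the genotypes stood in opposite order in iBAT and eWAT, each by more than 3 times the SD between repeated spots of its comparison. That SD is the median over probes with repeated spots, and none of the probes listed here had such spots. The multiple was chosen after the values were seen and holds no spread between mice. The difference between the tissues was not tested, because each group has 1 array. Of the 44 members measured on all 4 arrays 8 met this, beside 6.11% of all 27613 probes. Under the other scalings and background corrections between 5 and 12 members met it, with the SD kept as it was. The share of all probes that met it there ran from 2.80% (normexp) to 7.56% (series table). The class II probes that met it were H2-DMb1 with an iBAT difference 0.872 above that in eWAT on the log2 scale, H2-Ab1 with 0.728 at A_55_P2146560 and 0.604 at A_55_P1962747, probes that overlap by 41 bases, H2-Aa with 0.691 and H2-DMa with 0.527. Among class I, H2-T3 met it with 1.23 and H2-Q10 with 0.872 at A_55_P2037343, the pair whose probes share 22 bases. H2-M9 met it in the other direction at A_55_P2153757, with -0.571, where the signal was dim. After normexp H2-T3 gave 0.39 in iBAT and -0.16 in eWAT and no longer met it, nor did H2-Q10 and H2-DMa. In the series table the iBAT difference of that H2-Q10 probe, 0.26 as reported, was 0.18, and it did not meet it there either. H2-DMa missed it in the series table too, and with median centring both H2-DMa and H2-Q10 did. The H2-M9 probe missed it with no scaling and with the 75th percentile of the probes detected on all 4 arrays.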

How the results depend on the processing

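No paired analysis was possible because each group has 1 array and so no replicate number to block on (the fit of tissue and genotype is described in the report), and leaving out an array could not be run because it would leave a group empty. Relative to all probes, no class median changed sign under the alternatives run, while the medians of class I and processing in eWAT, -0.02 and -0.01 as reported, take their sign from the scaling. Of the alternative values of class medians and counts, 142 stayed within the SD between repeated spots, or within 1.5 times for counts, while 34 moved, and of those of single members 768 stayed and 148 moved. Scaling shifts all probes together. Taking the 75th percentile over the detected probes alone moved the median of all probes by 0.103 for the genotypes in iBAT and by -0.133 for the tissues in WT, and no scaling moved it by -0.920 for the tissues in WT and -0.771 in ASK1-deficient mice, so class medians below are relative to all probes. The count of members at least 2-fold higher in iBAT, 0 as reported, was 1 (Psmb8) with that percentile, no scaling, normexp or quantile normalization, 4 with no filter and 6 at 1.5-fold. The count at least 2-fold lower in iBAT, 0 as reported, was 1 (the dimmer H2-T24 probe) with median centring, quantile normalization or the series table, and 2 with no filter or at 1.5-fold. In eWAT 3 members were lower at 1.5-fold. The tissue term called 38 members with no scaling, where the share of all probes called was not counted, so this is no result about the members. With no filter on dim probes, the iBAT genotype median was 0.58 for class II and 0.59 for processing, the eWAT median was -0.37 for class II, the WT tissue median was -0.45 for class I, -2.52 for class II and -1.07 for processing, and the ASK1-deficient tissue median was -1.86 for class II and -0.53 for processing. Normexp gave WT tissue medians of -0.79 for class I and -2.51 for class II, and ASK1-deficient tissue medians of -0.25, -1.70 and -0.29 for class I, class II and processing. Quantile normalization gave -0.89 and -2.64 in WT and -0.27 and -1.74 in ASK1-deficient mice for class I and class II. With the brightest probe of each gene the ASK1-deficient tissue medians were -0.24 for class I and -1.43 for class II, with the probes detected on all 4 arrays the latter was -1.67, and without members that share a run of bases it was -1.42. The cause of these changes was not tested. Of 52 members measured in eWAT, 18 had a genotype difference whose sign depended on the setting. Dim probes, with signals near 20, limit what can be said of H2-M9, H2-T24, H2-T3 and H2-O.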
